A study of Mus musculus with 24 samples.

Results

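Gene expression was compared between the brain and the liver of normal newborn mice, the ICSI controls of a study of serially recloned mice. ICSI stands for intracytoplasmic sperm injection, the placing of a sperm into an egg by micropipette, so these pups were made with embryo handling but without nuclear transfer. The 8 arrays described here were chosen by their titles: 4 brains and 4 livers labelled NC, of 24 arrays in all. All donors were female neonates of the cross (C57BL/6 x DBA2) x 129/Sv. The other 16 arrays hold brain and liver of pups cloned from cumulus cells for 1 generation (CC, 4 per tissue) or for 20 generations (G20, 4 per tissue), on the same background and of the same sex and age. They were used here to see whether the tissue differences recur. Brain and liver arrays of 1 number carry 1 pup label. The labels name the organs only, without the region dissected or the hours since birth.

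The newborn brain is a tissue of young neurons that are still extending axons and forming synapses, with radial glia and glial precursors among them. The newborn liver has 2 lineages side by side. Hepatocytes make plasma proteins, urea, bile acids and, after birth, glucose and ketone bodies, while blood-forming cells that colonised the fetal liver still produce red cells, platelets and white cells before this task passes to the bone marrow.

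Total RNA was labelled with Cy3 and hybridised to Agilent mouse arrays of 41174 distinct probes. Levels are log2 signals relative to the 75th percentile of the array, which is set to 0, and differences are brain minus liver on that log2 scale, with the standard error (SE) of the limma fit and n = 4 per tissue. A probe was used where the scanner software rated all 4 arrays of the brain, or all 4 of the liver, as well above background, and 29109 probes for 19785 gene names passed. For a gene that was well above background on no array of the dimmer tissue the text gives a lower bound ("at least N-fold"): the mean of the bright tissue over the higher of the dim probe's own signal and the lowest signal among probes well above background, which lay between -7.21 and -5.75 on the log2 scale. Levels of different genes come from different probes and are not compared with each other. A gene was called different at an adjusted p below 0.05 (limma, Benjamini-Hochberg over all 19785 genes). Of the 289 genes given here by rule with values, 278 were called, with adjusted p-values of at most 0.0307 and SEs of at most 0.97. For each of the other 11 the values are given without a direction. A gene that passed through the arrays of 1 tissue alone had to be dim in the other, so its direction was largely fixed by the filter. List medians also moved with the filter and the background correction. The P450 median of -10.22 became -4.54 with probes well above background on all 8 arrays, -5.51 with normexp background correction and -4.31 with the authors' matrix values, and the GABA median of 7.32 became 5.01, 3.91 and 7.02.

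The arrays of each tissue and group share 1 slide, and the NC brains and NC livers were scanned in different sessions. Slide, session and tissue therefore cannot be told apart within NC. In CC both tissues were scanned in the same session. The 75th percentile of the signal was 814.3 to 937.3 in brain and 275.9 to 340.8 in liver, 2.89-fold higher in brain. No probe used was saturated. Replicate arrays correlated at 0.9914 to 0.9953 in brain and at 0.987 to 0.9943 in liver across genes. Xist was present on all 8 arrays, and probes for Ddx3y, Eif2s3y, Kdm5d and Uty were not well above background on all 4 arrays of either tissue, which matches the female label. Array 2 of the brain stood apart through pituitary hormone genes and array 4 of the liver through muscle genes and others. Leaving out any one array gave 17327 to 17624 called genes.

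Brain and liver differed at most genes. Of 19785 genes, 8798 were higher in brain (44.5%) and 8877 were higher in liver (44.9%), and 2110 were not called. The counts of each gene list below are to be read against these shares. At least 4-fold differences were called for 3986 genes higher in brain (20.1%) and 4133 higher in liver (20.9%). Differences of 16-fold or more were called for 1698 and 1668 genes. The groups of 4 arrays did not overlap at 17128 genes. The balance of the 2 directions depends on the scaling. When the arrays were scaled on 7 spiked-in control transcripts instead, every difference moved by 2.49 toward brain and 86.6% of 17387 calls were higher in brain, against 49.8% of 17675. Whether equal amounts of these controls were added is not stated, and differences toward liver of less than 2.49 have the opposite sign on that scale.

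More probes were rated well above background on the NC brain arrays, which were also the brighter ones. On average 69.1% ± 1.06 (SD, n = 4) of probes were well above background in brain and 58.5% ± 0.80 (SD, n = 4) in liver. The difference of 10.6 percentage points had p = 0.0286 in an exact two-sided permutation test, the smallest p that 4 against 4 arrays allow. Detection on all 4 arrays of the brain and on none of the liver held for 2870 genes (14.5%), and the reverse for 891 genes (4.5%). These shares move with the brightness of the arrays, whose part in the result was not tested.

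**Figure D1:**
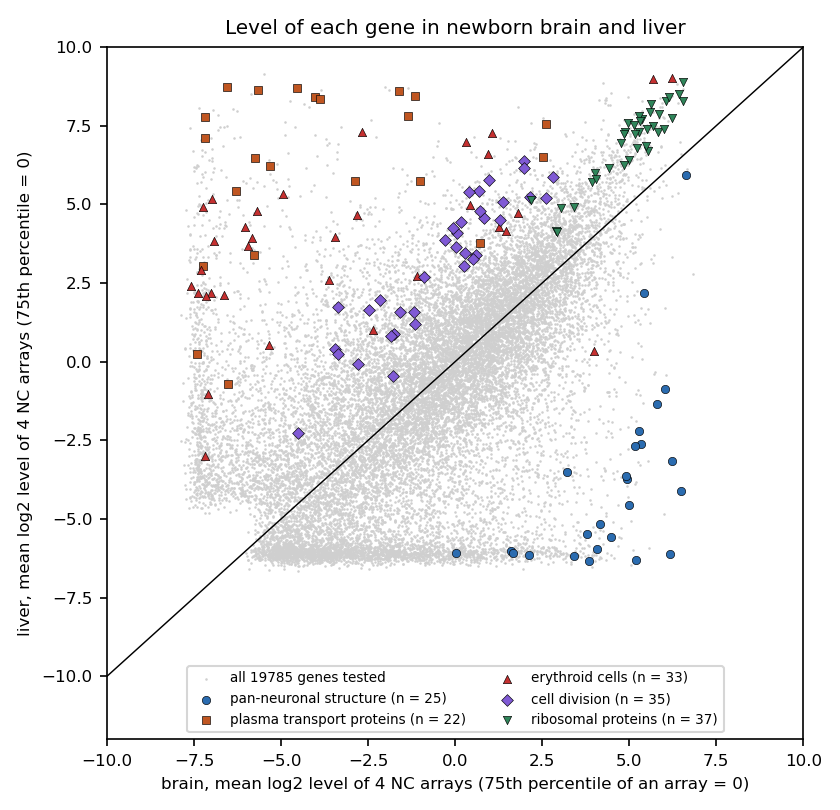
Mean log2 level of each gene in the 4 NC livers (vertical axis) against the 4 NC brains (horizontal axis), with the 75th percentile of each array at 0 and the line of equal level. Coloured points are members of 5 gene lists. The 25 pan-neuronal genes lie below the line and the plasma protein, red cell, cell division and ribosomal protein genes above it, apart from 1 red cell gene, Add2; on the spike-in scale the line would lie 2.49 higher.

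Several genes of neurons were among those with the widest differences toward brain. Of the genes measured on all 8 arrays, these included Stmn4, Dcx, Rtn1, Map2 and Fabp7. Dcx, doublecortin, binds microtubules in migrating neurons. Its probe (chrX:139102679-139102738, mouse build mm8) read 5.03, 5.0, 4.97 and 5.0 on the 4 brain arrays and -4.52, -4.53, -4.26 and -4.98 on the 4 liver arrays. Every brain array lay above every liver array, and the difference was 9.57 ± 0.14 (limma, adjusted p = 4.13e-11). Stmn4, a stathmin of neurons that destabilises microtubules, was higher in brain by 10.62 ± 0.28 and Rtn1, a reticulon of the neuronal endoplasmic reticulum, by 9.38 ± 0.08. Map2, the microtubule protein of dendrites, was higher by 8.67 ± 0.12. Among genes not well above background on any liver array, the related stathmin Stmn3 had the largest bound. It read 6.05, 6.22, 6.34 and 6.08 on the 4 brain arrays and -5.73, -6.30, -6.37 and -6.01 on the 4 liver arrays. Its level in brain was at least 4490-fold higher. Bounds of the same order were found for Nsg2, a neuronal endosome protein (at least 2830-fold), Crmp1, a mediator of semaphorin signals (at least 2280-fold), and Chl1, a cell adhesion molecule of growing axons (at least 2260-fold).

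All 25 measured members of a list of pan-neuronal structural genes were higher in brain, with a median difference of 8.55, where 44.5% of all genes were called in this direction. Of these 25 members 11 were measured on all 8 arrays. Tubb3, the tubulin used to mark neurons, was higher by 7.93 ± 0.10. Nefl, the light neurofilament subunit, was higher by at least 920-fold. The release machinery followed the same direction at 21 of 23 genes, and 9 of the 23 were measured on all 8 arrays. Snap25 and Syt1, a fusion protein and the calcium sensor of synaptic vesicles, were higher by at least 716-fold and at least 658-fold, Syp by at least 198-fold and Cplx1, a complexin, by at least 443-fold.

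One exception of the release list was a gene whose probes disagree. Syn1, which encodes synapsin I, read -0.81, -1.01, -0.66 and -0.80 on the 4 brain arrays and 2.45, 2.74, 2.38 and 2.91 on the 4 liver arrays. Its brightest probe was therefore higher in liver, by 3.44 ± 0.14, while the mean of its probes was higher in brain by 1.34, so the gene has no settled direction here.

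Transmitter systems were represented by receptors and transporters of glutamate and GABA. All 21 measured genes of the glutamatergic list were higher in brain, and 7 of them were measured on all 8 arrays. Gria2, the AMPA receptor subunit that limits calcium entry, was higher by at least 2080-fold and Gria1 by 8.57 ± 0.36 with 1 of 4 liver arrays well above background. Slc17a6, the vesicular glutamate transporter prominent in the developing brain, was higher by at least 359-fold and Slc17a7, its counterpart of the mature cortex, by 3.61 ± 0.92 with 1 of 4 liver arrays well above background. All 21 measured genes of the GABA list were also higher in brain, with a median difference of 7.32; 17 of them passed the filter through the brain arrays alone and 2 were measured on all 8 arrays. Gad1, an enzyme that makes GABA from glutamate, read 3.14, 3.1, 3.08 and 3.07 on the 4 brain arrays and -6.57, -6.04, -5.65 and -6.11 on the 4 liver arrays. The 8 values fall into separate ranges, and the bound is at least 507-fold. Gad2 was higher by at least 90.6-fold, and Slc32a1, the vesicular GABA transporter, by 6.89 ± 0.24.

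Genes of monoamine and acetylcholine neurons, which are few in number, showed smaller differences. Of 19 listed genes 11 passed the filter, and 9 of them were higher in brain with a median of 1.19. Th, the first enzyme of dopamine synthesis, was higher by at least 6.94-fold, Tph2, the enzyme of serotonin synthesis in the brain, by at least 6.36-fold, and Slc5a7, the choline transporter, by at least 13.7-fold. Nr4a2, a transcription factor of midbrain dopamine neurons that other neurons also express, was higher by 6.28 ± 0.18. Ddc, a decarboxylase that the liver also expresses, was higher in liver by 1.47 ± 0.14. In bulk tissue fewer cells of a type and less RNA per cell cannot be told apart.

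Neuropeptide genes were higher in brain at all 26 measured members, with a median of 6.02, and 9 of them were measured on all 8 arrays. Among peptides, Sst, somatostatin, was higher by 9.63 ± 0.35 with 1 of 4 liver arrays well above background, Cck, cholecystokinin, by at least 435-fold and Npy, neuropeptide Y, by 3.30 ± 0.11. The granins, which help to form secretory granules, had large differences. Scg3 was higher by at least 1010-fold and Chgb by 9.76 ± 0.37 with 1 of 4 liver arrays well above background. All 19 measured voltage-gated channel genes were also higher in brain, but only 3 of them were measured on all 8 arrays. Among the 19 were the sodium channels Scn8a, by 7.14 ± 0.26, and Scn3a, by at least 20.9-fold, and the potassium channel Kcnd2, by at least 408-fold. The direction of genes that passed through the brain arrays alone was largely fixed by the filter.

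Axon guidance and adhesion genes were higher in brain at 28 of 29 members, with 1 not called, where 44.5% of all genes were called in this direction. Epha5, an ephrin receptor, was higher by at least 567-fold, Cntn1, a contactin, by at least 572-fold, and Robo2, a Slit receptor, by 4.54 ± 0.17. The migration and layering list was more divided, with 12 of 15 higher in brain and 3 higher in liver. Astn1, astrotactin, was higher in brain by at least 993-fold and Dab1, the adaptor of the reelin signal, by 6.94 ± 0.15. Reln itself, which hepatic stellate cells also express, differed by only 0.96 ± 0.10. Of 17 genes of neuronal RNA processing and gene control, 13 were higher in brain, 3 were higher in liver and 1 was not called. Rbfox1, a splicing factor, was higher by 10.36 ± 0.35 with 1 of 4 liver arrays well above background, Elavl2, an RNA-binding protein, by 9.52 ± 0.34 with 1 of 4 liver arrays well above background and Myt1l, a transcription factor of neurons, by at least 963-fold.

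Transcription factors gave a regional picture of the tissue taken. Of 23 factors of the cortex and hippocampus, 21 were higher in brain and 14 were well above background on the brain arrays alone. Bcl11b, a factor of deep-layer and striatal neurons, read 3.49, 2.82, 3.48 and 3.46 on the 4 brain arrays and -6.54, -6.29, -6.46 and -6.25 on the 4 liver arrays. No liver value came near the brain values, and the bound is at least 633-fold. For other factors the direction was the same. Neurod6 was higher by at least 318-fold and Tbr1, a factor of early glutamatergic neurons, by at least 149-fold. Factors of the midbrain and hindbrain were present too. Zic1 was higher in brain by at least 633-fold, Lhx5 by at least 127-fold and En2, a midbrain and cerebellar factor, by at least 76.8-fold. The Hox genes on this list went the other way. Hoxb2 was higher in liver by 4.42 ± 0.56 with 1 of 4 brain arrays well above background, Hoxb5 by at least 18.2-fold and Hoxa3 by 1.61 ± 0.08. Hox genes mark the hindbrain and spinal cord in the nervous system and are also expressed by blood progenitors. Hoxb3, Hoxb4, Hoxa2, Hoxa4 and Hoxa5 did not pass the filter.

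Striatal and thalamic genes were higher in brain at 16 of 17 members. Isl1, a factor of striatal and cholinergic neurons, was higher by at least 60.6-fold, Tac1, substance P, by at least 108-fold, Penk, proenkephalin, by 5.36 ± 0.26 and Foxp2 by 4.00 ± 0.09. The exception was Adora2a, an adenosine receptor of striatal neurons that blood cells also express, higher in liver by 4.04 ± 0.11.

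Progenitor genes divided. Of 22 measured members 15 were higher in brain, 3 were higher in liver and 4 were not called. Over all genes 44.5% were called toward brain and 44.9% toward liver. Fabp7, the fatty acid binding protein of radial glia, was higher by 8.69 ± 0.27 and Sox2, a stem cell factor, by at least 150-fold. Pax6 was higher by at least 62-fold, Hes5, a Notch target, by 7.21 ± 0.15, Sox11 by 7.38 ± 0.17, and Slc1a3, a glial glutamate transporter, by 8.28 ± 0.18 with 1 of 4 liver arrays well above background. Nes, which encodes nestin and is also found in young blood vessels, differed by 1.82 ± 0.09. Vim, a filament gene of many cell types, was higher in liver by 0.38 ± 0.11 and higher in brain by 0.43 and 0.55 after quantile and normexp processing.

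Promoters of 2 of these neuronal factors are shown from RefSeq, build GRCm38.p6, beside the promoters of liver genes printed further below. They are the 250 bases before the annotated gene start, 5′ to 3′ on the gene's strand, with each CG dinucleotide in capitals.
Tbr1, chr2:61804203-61804452, plus strand: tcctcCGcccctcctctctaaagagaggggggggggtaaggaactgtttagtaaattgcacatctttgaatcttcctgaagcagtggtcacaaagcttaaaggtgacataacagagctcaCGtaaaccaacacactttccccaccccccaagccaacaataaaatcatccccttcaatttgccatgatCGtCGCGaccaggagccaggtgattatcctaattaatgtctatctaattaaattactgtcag
Bcl11b, chr12:108003415-108003664, minus strand: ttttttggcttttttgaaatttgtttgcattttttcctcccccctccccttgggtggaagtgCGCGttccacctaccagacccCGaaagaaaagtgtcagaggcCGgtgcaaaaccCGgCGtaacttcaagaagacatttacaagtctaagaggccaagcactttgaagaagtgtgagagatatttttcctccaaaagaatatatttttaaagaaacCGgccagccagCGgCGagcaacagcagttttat
With the 50 bases after the start included, the Tbr1 window holds 7 CG dinucleotides and the Bcl11b window 9. The median was 20 in the cortical factor list, 12 in the hepatocyte factor list and 9 in the urea cycle list. These 2 promoters therefore do not stand for their list or for a difference between the organs.

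Glial genes were mixed in direction. Of 17 astrocyte genes, 15 were higher in brain with a median of 2.76. Mlc1, a membrane protein of astrocyte endfeet, was higher by at least 333-fold and Aqp4, the water channel of the endfeet, by at least 28.3-fold. Gfap, the filament of mature astrocytes, differed by 1.68 ± 0.46. Both exceptions are enzymes with a liver role. Aldh1l1, a folate enzyme used as an astrocyte marker in brain, was higher in liver by 2.43 ± 0.10 and Glul, glutamine synthetase, by 2.18 ± 0.09.

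Genes of the oligodendrocyte lineage separated by stage. The precursor factors Olig1 and Olig2 were higher in brain by at least 452-fold and at least 55.8-fold, and Gpr17, a receptor of early oligodendrocytes, by at least 169-fold. Of the genes of mature myelin on the list, Mog, Opalin and Fa2h did not pass the filter. Mobp read -6.96, -7.18, -7.52 and -7.51 on the 4 brain arrays and -1.02, -0.80, -1.10 and -1.17 on the 4 liver arrays. It was well above background on no brain array and was higher in liver by at least 62.7-fold. Mag was higher in liver by 1.32 ± 0.11. Mbp was higher in liver by 0.46 ± 0.10 at its brightest probe and higher in brain by 0.89 over the mean of its probes, so its direction is not settled.

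Microglial genes mostly read higher in liver, which holds many other macrophages. Of 16 measured genes, 5 were higher in brain and 11 higher in liver, with a median of -1.64. The shares over all genes were 44.5% and 44.9%. Gpr34, P2ry12 and Cx3cr1, receptors by which microglia are told from other macrophages, were higher in brain by at least 5.02-fold, 0.85 ± 0.12 and 0.82 ± 0.19, the last a call lost with median scaling (0.41, adjusted p = 0.0608 by limma). Genes shared with other macrophages were higher in liver. C1qc, a complement subunit, was higher there by 4.06 ± 0.10, the adaptor Tyrobp by 4.10 ± 0.11 and Selplg, a selectin ligand, by 4.47 ± 0.08. Tmem119, a microglial marker in adult brain, was also higher in liver, by 1.16 ± 0.11.

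Genes of brain vessels, choroid plexus and meninges were divided. Of 14 genes of barrier endothelium, 9 were higher in brain and 5 in liver, and of 15 genes of choroid plexus and ependyma, 11 and 4. Of 18 genes of meninges and pericytes, 8 were higher in brain and 10 in liver, with a median of -1.16. Over all genes 44.5% were called toward brain and 44.9% toward liver. Mfsd2a, the lipid transporter of the blood-brain barrier, was higher in brain by at least 196-fold and Slco1c1, a thyroid hormone transporter, by 6.43 ± 0.60 with 1 of 4 liver arrays well above background. Cldn5, a tight junction protein of endothelium, differed by 1.57 ± 0.11. The glucose transporter Slc2a1, made by barrier endothelium and by red cell precursors, was higher in liver by 2.97 ± 0.12. Ptgds, a prostaglandin synthase of the meninges and choroid plexus, was higher in brain by 8.43 ± 0.14. Of the choroid plexus genes, Otx2 was higher by at least 64-fold, the channel subunit Kcne2 by at least 65.6-fold, the sulfate transporter Slc13a4 by at least 114-fold and the folate receptor Folr1 by 2.64 ± 0.27. Prlr, Igfbp2 and Ttr, also on the choroid plexus list, were higher in liver. So were Slc47a1, Vtn and Igf2 of the list of meninges and pericytes.

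**Figure D2:**
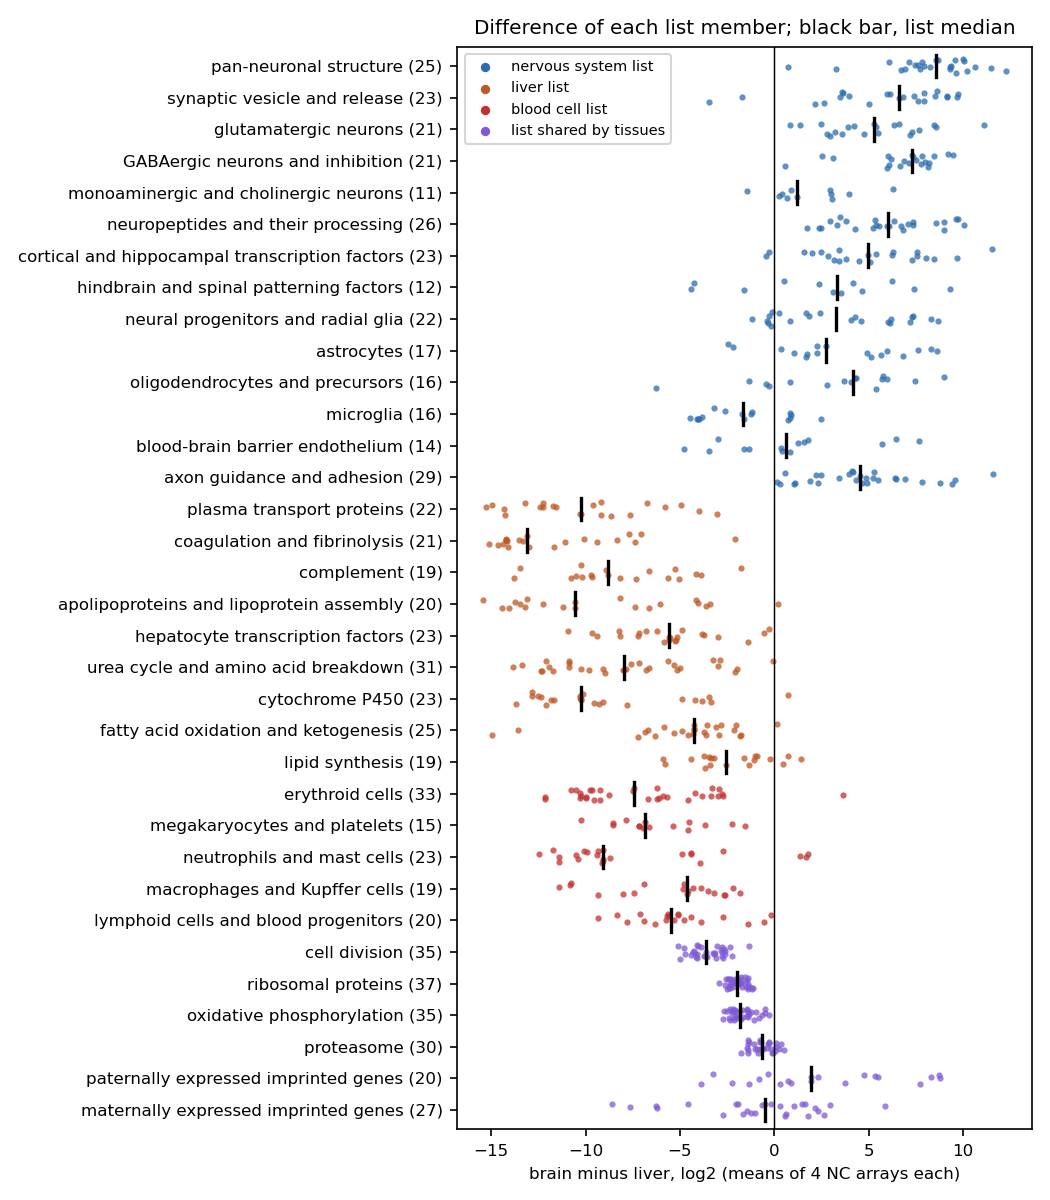
Brain minus liver difference (log2, horizontal axis) of each measured member of 34 gene lists, with the number of members in parentheses and the list median as a black bar. Neuronal lists have medians between 1.19 and 8.55, liver function lists between -13.09 and -2.56, and blood cell lists between -9.07 and -4.64. On the spike-in scale every point and every list median lies 2.49 further toward brain.

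Toward liver, genes with very large differences included plasma proteins such as Alb and intracellular enzymes such as Cps1, Fbp1 and Uox. Alb, serum albumin, read -4.65, -4.28, -4.73 and -4.52 on the 4 brain arrays and 8.71, 8.68, 8.57 and 8.78 on the 4 liver arrays, on a probe at chr5:91547772-91547831 (mm8). The liver values were all above 8 and the brain values all below -4, and the gene was higher in liver by 13.23 ± 0.11 (limma, adjusted p = 4.76e-12). Afp, alpha-fetoprotein, the albumin relative of the fetal liver, read -4.17, -3.89, -4.11 and -3.92 on the 4 brain arrays and 8.44, 8.40, 8.29 and 8.51 on the 4 liver arrays, a difference of 12.43 ± 0.09 toward liver. All 22 measured plasma transport genes were higher in liver, with a median of -10.26, where 44.9% of all genes were called in this direction. Apoh, a lipid-binding plasma protein, was higher by at least 26800-fold, Gc, the vitamin D binding protein, by at least 16900-fold, Trf, transferrin, by 10.22 ± 0.08, Ahsg, fetuin A, by 12.23 ± 0.12 and Serpina1d, a protease inhibitor, by 13.02 ± 0.35. For Ambp the difference was 15.29 ± 0.10 with 1 of 4 brain arrays well above background and for Hp, haptoglobin, it was 14.29 ± 0.31 with 2 of 4 brain arrays well above background.

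Traces of these plasma transcripts were also read on the brain arrays. Of the 22 genes 13 were well above background on all 4 brain arrays, and the summed level of the 22 was 15.5 to 15.8 times the 75th percentile, against 3620 to 3980 in liver. Where these traces come from was not tested.

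Clotting, complement and lipoprotein genes had the same direction. All 21 clotting genes were higher in liver with a median of -13.09, and 4 of them were measured on all 8 arrays. Fgb and Fga, fibrinogen chains, were higher by 14.63 ± 0.11 with 3 of 4 brain arrays well above background and by at least 15400-fold, F2, prothrombin, by 14.23 ± 0.12 with 1 of 4 brain arrays well above background, Plg, plasminogen, by at least 18200-fold and Kng1, kininogen, by at least 29100-fold. All 19 complement genes were higher in liver as well, and 10 of them were measured on all 8 arrays. C3 was higher by 10.77 ± 0.07, Hc, which encodes C5, by 10.50 ± 0.23, the inhibitor Cfi by at least 11400-fold and Mbl2, a lectin that starts the cascade, by 13.47 ± 0.33 with 1 of 4 brain arrays well above background. Of 20 lipoprotein genes, 19 were higher in liver and 9 were measured on all 8 arrays. Apoa1, the main protein of HDL, read -7.23, -7.55, -7.36 and -7.31 on the 4 brain arrays and 8.01, 8.02, 8.04 and 8.12 on the 4 liver arrays. All 4 brain arrays were at background, and the bound of at least 33700-fold is the largest found for any gene. Apob, the protein of VLDL and LDL, was higher by at least 7370-fold and Apoa2 by 14.42 ± 0.29 with 1 of 4 brain arrays well above background. Pltp, a phospholipid transfer protein, was not called (0.21 ± 0.14, adjusted p = 0.183 by limma), but was called higher in brain with common-probe scaling (0.5) and the matrix values (0.76). All 16 acute-phase genes were higher in liver, and 5 of them were measured on all 8 arrays. Apcs, serum amyloid P, differed by at least 3760-fold, Hamp, the iron hormone hepcidin, by at least 305-fold and Saa1 by 5.17 ± 0.23.

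Promoters of liver genes are shown because many plasma transport and cytochrome genes had few CG dinucleotides, a feature that the choice of samples did not use; the shares in other lists are given beside theirs. Letters of 4 motifs are reported here, searched over 300 bases, from 250 before to 50 after the start, in the 27025 promoters of the RefSeq table and in the 7 lists with a promoter for at least 80% of members. For HNF4, a nuclear receptor, the letters were CAAAGTCCA on both strands, found in 129 promoters (0.477%) and in 4 of 19 cytochrome P450 promoters (21.1%), and in 0 of the plasma transport promoters. The P450 matches were Cyp2c70 and, from 1 family on chromosome 5, Cyp3a11, Cyp3a16 and Cyp3a41a. Genes of 1 family may share sequence, so these matches may not be independent. The C/EBP letters TTGCGCAA, in 50 promoters (0.185%), were in 0 promoters of all 7 lists. The letters TTCAGCACC of the RE1 repressor element, on both strands, in 97 promoters (0.359%), were in 1 of 24 neuropeptide promoters. TATAAA on the gene's strand was in 2400 promoters (8.88%) and in 5.57% of the promoters of tested genes. Among the lists, it was found in 6 of 19 P450 (31.6%), 5 of 18 plasma transport (27.8%), 4 of 19 hepatocyte factor (21.1%) and 4 of 24 neuropeptide promoters (16.7%). It was in 0 of 18 coagulation, 0 of 21 cortical factor and 0 of 29 cell division promoters. A match is a description of the letters and not a binding site. The 250 bases before the start are printed 5′ to 3′, build GRCm38.p6, with CG dinucleotides in capitals for Afp and Gc and the HNF4 letters in capitals for Cyp3a11.
Afp, chr5:90490464-90490713, plus strand: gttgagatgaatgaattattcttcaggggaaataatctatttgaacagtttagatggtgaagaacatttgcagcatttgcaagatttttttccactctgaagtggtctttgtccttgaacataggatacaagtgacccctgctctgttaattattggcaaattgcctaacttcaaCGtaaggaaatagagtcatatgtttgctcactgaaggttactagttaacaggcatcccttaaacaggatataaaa
Gc, chr5:89457899-89458148, minus strand: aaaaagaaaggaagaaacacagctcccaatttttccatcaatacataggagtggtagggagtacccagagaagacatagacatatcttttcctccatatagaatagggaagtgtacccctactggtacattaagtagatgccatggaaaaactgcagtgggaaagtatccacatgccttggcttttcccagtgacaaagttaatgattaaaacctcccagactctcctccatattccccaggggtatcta
Cyp3a11, chr5:145879855-145880104, minus strand, HNF4 letters: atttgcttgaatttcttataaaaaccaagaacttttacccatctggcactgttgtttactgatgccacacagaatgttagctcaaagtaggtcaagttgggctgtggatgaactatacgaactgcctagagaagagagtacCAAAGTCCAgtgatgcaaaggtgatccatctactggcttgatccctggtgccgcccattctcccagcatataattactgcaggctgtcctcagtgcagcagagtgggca
The match in Cyp3a11 begins 109 bases before the start. CG dinucleotides were scarce over the 300 bases, with 3 in Afp, 0 in Gc and 2 in Cyp3a11. Fewer than 5 CG dinucleotides were found in 84.2% of 19 P450 promoters and 72.2% of 18 plasma transport promoters, in 44.4% of 18 coagulation promoters and in 26.3% of 19 hepatocyte factor promoters. The share was 8.33% of 24 neuropeptide promoters, 14.3% of 21 cortical factor promoters and 0 of 29 cell division promoters. Over all 27025 promoters it was 38.3%. Over the 11575 promoters of tested genes it was 11.7%, to which the neuropeptide and cortical factor shares are near. Over all tested genes the table holds 58.5% of promoters, too few for a statement on the whole comparison.

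The transcription factors of hepatocytes had the same direction as the plasma proteins. All 23 measured factors were higher in liver with a median of -5.56, and 8 were well above background on the liver arrays alone. Hnf4a, a nuclear receptor required for the hepatocyte state, read -8.00, -7.65, -8.18 and -7.73 on the 4 brain arrays and 1.52, 1.45, 1.45 and 1.5 on the 4 liver arrays. Brain values lay at background, and the gene was at least 355-fold higher in liver. Foxa3 was higher by at least 208-fold, Foxa2, which the ventral midbrain also uses, by 5.86 ± 0.11 and Nr1h4, the bile acid receptor FXR, by at least 794-fold. Of 19 markers of fetal and newborn hepatocytes, 16 were higher in liver and 3 in brain, the last being Sox9, Igf2bp1 and Lin28b. Dlk1, a marker of hepatoblasts, was higher by 3.23 ± 0.27, Gpc3, a fetal glypican, by 5.14 ± 0.09, H19, an imprinted noncoding RNA, by 6.29 ± 0.12 and Igfbp1, a growth factor binding protein, by 12.49 ± 0.08.

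Metabolic programmes of the hepatocyte were high as groups. Of 31 genes of the urea cycle and amino acid breakdown 30 were higher in liver, with a median of -7.95. Cps1, the entry enzyme of the urea cycle, read -4.95, -4.92, -4.67 and -5.06 on the 4 brain arrays and 7.37, 7.27, 7.10 and 7.07 on the 4 liver arrays. The difference was 12.10 ± 0.11 and the groups lay far apart. Ass1 was higher by 7.14 ± 0.11, Arg1 by 11.71 ± 0.32 with 1 of 4 brain arrays well above background and Asl, which many tissues use, by 2.89 ± 0.07. Agxt, which detoxifies glyoxylate, was higher by at least 11800-fold and Uox, urate oxidase, by at least 24400-fold. Glucose production was represented by Fbp1, higher by 12.28 ± 0.07, G6pc, higher by 11.32 ± 0.45 with 1 of 4 brain arrays well above background, and Pcx, higher by 4.86 ± 0.09.

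Fat oxidation genes were higher in liver at 24 of 25 members, with a median of -4.26. Cpt1a, which admits fatty acids to mitochondria, was higher by 2.83 ± 0.17. Acadm was higher by 4.56 ± 0.13, as read on all 4 brain and 3 liver arrays. Cyp4a14, a target of the fatty acid receptor PPAR alpha, was higher by at least 8430-fold. Fat synthesis gave a mixed result, with 15 of 19 genes higher in liver, 3 higher in brain and 1 not called. Scd1, a desaturase, was higher in liver by 3.42 ± 0.24 and Acly by 1.03 ± 0.17, while Me1, malic enzyme, was higher in brain by 1.40 ± 0.19. Fasn, fatty acid synthase, was not called at -0.21 ± 0.09 (limma, adjusted p = 0.0549), was called higher in liver with the pup number as a block (-0.24), and was higher in brain by 1.69 after quantile normalization. Cholesterol synthesis, which both organs carry out, was less separated. Of 22 genes 13 were higher in liver, 2 in brain and 7 were not called. For both lipid lists the shares over all genes were 44.9% toward liver and 44.5% toward brain. Sqle, squalene epoxidase, was not called at 0.14 ± 0.06, but was called higher in brain with quantile normalization (1.16), normexp (1.29), common-probe scaling (0.42) and the matrix values (0.72), and higher in liver with median scaling (-0.27). The isomerase Ebp was higher in liver by 4.73 ± 0.06 and Srebf2, the factor that drives the pathway, was higher in brain by 0.90 ± 0.08, a call that the mean of its probes did not give.

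Detoxifying and bile acid enzymes were already expressed. Of 23 measured P450 genes 22 were higher in liver with a median of -10.22, and 10 were measured on all 8 arrays. Cyp2e1 was higher by at least 4050-fold, Cyp3a11 by at least 3060-fold, Cyp2c29 by at least 9290-fold and Cyp2d26 by 12.54 ± 0.10. P450 genes of 1 family are close in sequence and their probes may read each other's transcripts. The exception was Cyp46a1, which turns over cholesterol in neurons, higher in brain by 0.70 ± 0.08. Cyp7a1, the rate-limiting enzyme of bile acid synthesis, was higher in liver by at least 940-fold, the bile salt exporter Abcb11 by at least 6950-fold and the importer Slc10a1 by at least 2060-fold. Cyp7b1, an oxysterol enzyme that the brain also uses, was higher in brain by 1.75 ± 0.09. Among conjugating enzymes, Ugt1a1, which conjugates bilirubin, was higher in liver by at least 279-fold and Gsta3 by 10.55 ± 0.10, while Nnmt was higher in brain by 3.42 ± 0.51 with 3 of 4 liver arrays well above background. Adh1 was higher in liver by 11.21 ± 0.16, Ftcd, a folate enzyme, by 10.86 ± 0.13 and Pon1, a plasma esterase, by 11.75 ± 0.19.

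Genes of blood-forming cells made up a further large group toward liver. Of 33 measured red cell genes 32 were higher in liver with a median of -7.41. Hba-a1, adult alpha globin, read 6.25, 4.88, 5.38 and 6.16 on the 4 brain arrays and 8.95, 8.88, 8.90 and 9.15 on the 4 liver arrays. It was high in both organs and higher in liver by 3.30 ± 0.29; its near-identical copy could not be told apart. Genes of nucleated precursors differed more. Klf1, a red cell transcription factor, was higher by 10.48 ± 0.34 with 3 of 4 brain arrays well above background, Hemgn by at least 3860-fold, the membrane protein Kel by at least 3620-fold, and Alas2, the haem synthesis enzyme of red cells, by 5.68 ± 0.41. The embryonic globin Hbb-y was higher by 5.88 ± 0.23. Red cell transcripts on the brain arrays varied. The summed level of the 33 genes was 108, 116, 151 and 206 on brain arrays 1 to 4 and 1870 to 2080 in liver. Add2, a membrane skeleton gene that neurons share with red cells, was the exception, higher in brain by 3.63 ± 0.14. Cygb, a globin of neurons and fibroblasts, was higher in brain by 2.33 ± 0.09.

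White cells and platelets followed. All 15 platelet lineage genes were higher in liver, and 7 of them were measured on all 8 arrays. Ppbp and Pf4, platelet chemokines, were higher by 10.23 ± 0.18 with 2 of 4 brain arrays well above background and 4.5 ± 0.10, and the integrin gene Itga2b by at least 124-fold. Of 23 neutrophil and mast cell genes, 20 were higher in liver and 9 were measured on all 8 arrays. Mpo, myeloperoxidase, read -4.22, -5.63, -4.78 and -5.80 on the 4 brain arrays and 6.09, 6.25, 6.21 and 6.58 on the 4 liver arrays, a difference of 11.39 ± 0.33 with no overlap. The granule genes Elane, Ctsg and Camp were higher by at least 300-fold, 9.05 ± 0.12 and 12.45 ± 0.29 with 1 of 4 brain arrays well above background. The 3 exceptions were mast cell genes, all higher in brain. Cpa3 was higher there by 1.78 ± 0.56, Kit, which neurons also express, by 1.66 ± 0.11 and Mcpt4 by 1.36 ± 0.44 with 3 of 4 liver arrays well above background, a call lost with median scaling, quantile normalization and normexp. All 19 macrophage genes were higher in liver, with Clec4f, the marker of Kupffer cells, higher by at least 1290-fold, Marco by at least 2510-fold, Cd5l by at least 1440-fold and Vsig4 by at least 123-fold. Of 20 lymphoid and progenitor genes 19 were higher in liver and 1 was not called. Vpreb3 and Igll1, parts of the receptor complex of B cell precursors, were higher by 8.33 ± 0.21 and at least 143-fold, and Cd79b by 6.30 ± 0.16.

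Genes of the liver sinusoids and of stellate cells differed in how uniform they were. All 17 endothelial genes were higher in liver. Stab2, the scavenger receptor of sinusoids, was higher by 6.45 ± 0.49, Lyve1 by 4.19 ± 0.09 and Clec4g by at least 565-fold. Of 20 genes of stellate cells and fibroblasts, 11 were higher in liver, 5 were higher in brain and 4 were not called, with a median of -0.94 that became 0.18 with the matrix values. Over all genes 44.9% were called toward liver and 44.5% toward brain. Lrat, which stores retinol in stellate cells, was higher in liver by at least 32.2-fold and Des, desmin, by at least 12.7-fold. Thy1, Rgs5 and Reln of the same list were higher in brain.

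Genes of dividing cells were higher in liver without exception among the 35 measured, with a median of -3.60 that was between -4.01 and -2.66 under the other scalings and background corrections and would be 2.49 nearer to brain on the spike-in scale. Mki67, the proliferation marker, read 2.18, 1.81, 1.81 and 2.06 on the 4 brain arrays and 6.38, 6.33, 6.33 and 6.42 on the 4 liver arrays. The groups did not overlap and differed by 4.40 ± 0.10 (limma, adjusted p = 3.94e-10). Ccnb1, the cyclin of mitosis, was higher by 4.10 ± 0.09, its kinase Cdk1 by 3.17 ± 0.14, Top2a, which untangles chromosomes, by 2.75 ± 0.11, the replication licensing factor Cdc6 by 5.10 ± 0.13 and its inhibitor Gmnn by 4.99 ± 0.08.

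The shared machinery of cells also read higher in liver, but by amounts that depend on the scaling. All 37 ribosomal protein genes were higher in liver with a median of -1.97, which became -0.04 with normexp and -0.20 with quantile normalization and would be of the opposite sign on the spike-in scale. Rpl30 was higher by 2.94 ± 0.09 and Rps3 by 2.33 ± 0.07. Rpl3 read 5.63, 5.65, 5.42 and 5.49 on the 4 brain arrays and 6.5, 6.72, 6.70 and 6.86 on the 4 liver arrays, higher in liver by 1.15 ± 0.10 here and higher in brain by 0.79 after quantile normalization. Oxidative phosphorylation genes were higher in liver at 35 of 35, with a median of -1.83 that became -0.47 with normexp. Uqcrfs1, a complex III subunit, was higher by 2.67 ± 0.07, Atp5b, of the ATP synthase, by 2.16 ± 0.07 and Cox4i1, of cytochrome oxidase, by 1.45 ± 0.09; the last changed direction under quantile normalization (0.50) and both of the last with normexp. Proteasome genes had a median of -0.65 and a positive one of 0.26 with normexp. Psmb3 was higher in liver by 1.74 ± 0.10 and Psmc5 in brain by 0.51 ± 0.08. For the secretory pathway the median was -1.03, and -0.15 with normexp. Sec61b, of the protein-conducting channel, was higher in liver by 2.86 ± 0.19, and Hspa5, a chaperone, by 1.29 ± 0.17, a direction that quantile normalization turned (0.28).

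Imprinted genes, expressed from the allele of 1 parent, did not go one way. Of 20 paternally expressed genes 14 were higher in brain and 6 in liver. Nap1l5, Magel2 and Usp29 were higher in brain by at least 387-fold, at least 256-fold and at least 390-fold, and Nnat, neuronatin, by 7.74 ± 0.20. Ndn, of the region lost in Prader-Willi syndrome, read 3.30, 3.55, 3.50 and 3.51 on the 4 brain arrays and -1.98, -1.91, -1.93 and -1.60 on the 4 liver arrays. Brain was higher by 5.32 ± 0.10 with no overlap. Snrpn of the same region was higher by 4.75 ± 0.09 and Peg3 by 0.89 ± 0.17. The growth factor Igf2 went the other way. It read 3.75, 3.71, 3.65 and 3.83 on the 4 brain arrays and 7.64, 7.69, 7.57 and 7.62 on the 4 liver arrays, higher in liver by 3.9 ± 0.07. Mest was higher in liver by 2.26 ± 0.09. Of 27 maternally expressed genes, 12 were higher in brain, 14 in liver and 1 was not called. Over all genes the shares called were 44.5% toward brain and 44.9% toward liver, so this division is near that of all genes. Grb10, a brake on growth factor signals, was higher in liver by 4.58 ± 0.10, the growth inhibitor genes Phlda2 and Cdkn1c by 7.64 ± 0.39 with 2 of 4 brain arrays well above background and 1.66 ± 0.38, and Tspan32, a tetraspanin of blood cells, by at least 343-fold, while Calcr was higher in brain by at least 46.9-fold.

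Chromatin genes were divided much as all genes were. Of 36 genes 19 were higher in brain and 15 higher in liver, where the shares over all genes were 44.5% and 44.9%. Actl6b, the subunit that neurons place in their BAF remodelling complex, was higher in brain by at least 124-fold, Chd5 by at least 325-fold, Hdac2 by 3.36 ± 0.12 and Dnmt3a, a de novo DNA methyltransferase, by 2.06 ± 0.07. Uhrf1 and Dnmt1, which copy methylation after replication, were higher in liver by 3.69 ± 0.12 and 0.77 ± 0.07. Rest, the repressor of neuronal genes outside the nervous system, was higher in liver by 2.08 ± 0.09.

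Several enzymes and carriers are encoded by a pair of genes, and the pairs often divided between the organs. For arginase, Arg2 was higher in brain by 3.21 ± 0.15 with 2 of 4 liver arrays well above background and Arg1, the urea cycle form, higher in liver by 11.71 ± 0.32 with 1 of 4 brain arrays well above background. Fatty acid binding protein genes were split between Fabp7 in brain and Fabp1, higher in liver by at least 28600-fold. Fabp3 was higher in brain by 6.05 ± 0.16, and Fabp5 was higher in liver by 2.54 ± 0.09. Among channels and junctions, the connexin gene Gja1 was higher in brain by 2.76 ± 0.10 and Gjb1 higher in liver by 7.23 ± 0.11, and the water channel Aqp9 was higher in liver by at least 172-fold against Aqp4 in brain.

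Glycolysis showed the same division in part. Eno2 was higher in brain by 6.33 ± 0.09, while Eno1 was not called (-0.14 ± 0.10), was called higher in liver with median scaling (-0.55) and higher in brain with the matrix values (0.40). Pfkp and Ldhb were higher in brain by 4.05 ± 0.17 and 2.93 ± 0.12, and Pfkl and Ldha higher in liver by 1.34 ± 0.07 and 2.57 ± 0.12. Pklr, the liver form of pyruvate kinase, was higher in liver by at least 86.8-fold. Smaller differences were found at other genes. Aldoc differed by 0.34 ± 0.09 toward brain, with the sign turned by median scaling (-0.07), Pkm by 0.79 ± 0.10 toward brain and Aldoa by 0.95 ± 0.09 toward liver, the last higher in brain by 1.06 after quantile normalization. Slc2a2, the glucose transporter of hepatocytes, was higher in liver by at least 1270-fold. Hk2 was higher in liver by 3.12 ± 0.14 and Hk1 by 0.84 ± 0.07, the last higher in brain by 0.28 after quantile normalization. Slc2a3, the neuronal glucose transporter, was not called (0.21 ± 0.12, adjusted p = 0.135 by limma). It was called higher in brain with quantile normalization (0.45), normexp (0.35), common-probe scaling (0.49), the matrix values (0.76) and without liver array 2 (0.29).

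The remaining pairs divided to different degrees. Gys2 and Pygl, which build and break down liver glycogen, were higher in liver by at least 4280-fold and 6.72 ± 0.13, and Pygb was higher in brain by 0.85 ± 0.14. Gys1 was not called (-0.18 ± 0.14); it was called higher in liver with median scaling (-0.59), quantile normalization (-0.52), normexp (-0.21) and without liver array 3 (-0.33), and higher in brain with the matrix values (0.38). Mat1a was higher in liver by at least 4120-fold, and Mat2a by 0.34 ± 0.09, a sign that quantile normalization turned (1.02). Gls2 was higher in liver by 6.10 ± 0.07. Cpt1c was higher in brain by 4.70 ± 0.14, and the acyl-CoA synthetase genes divided into Acsl6, higher in brain by at least 50.7-fold, and Acsl1, higher in liver by 5.83 ± 0.07. Ckb, creatine kinase of the brain, was higher there by 3.9 ± 0.08. Of paired splicing factors, Ptbp2 was higher in brain by 3.63 ± 0.12 and Ptbp1, which it replaces as neurons form, higher in liver by 1.90 ± 0.08. Rbfox3, the NeuN antigen, was higher in brain by 5.43 ± 0.14 and Esrp2, an epithelial splicing factor, higher in liver by at least 433-fold. Igf1 and the growth hormone receptor Ghr were higher in liver by 4.87 ± 0.14 and 3.99 ± 0.07.

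**Figure D3:**
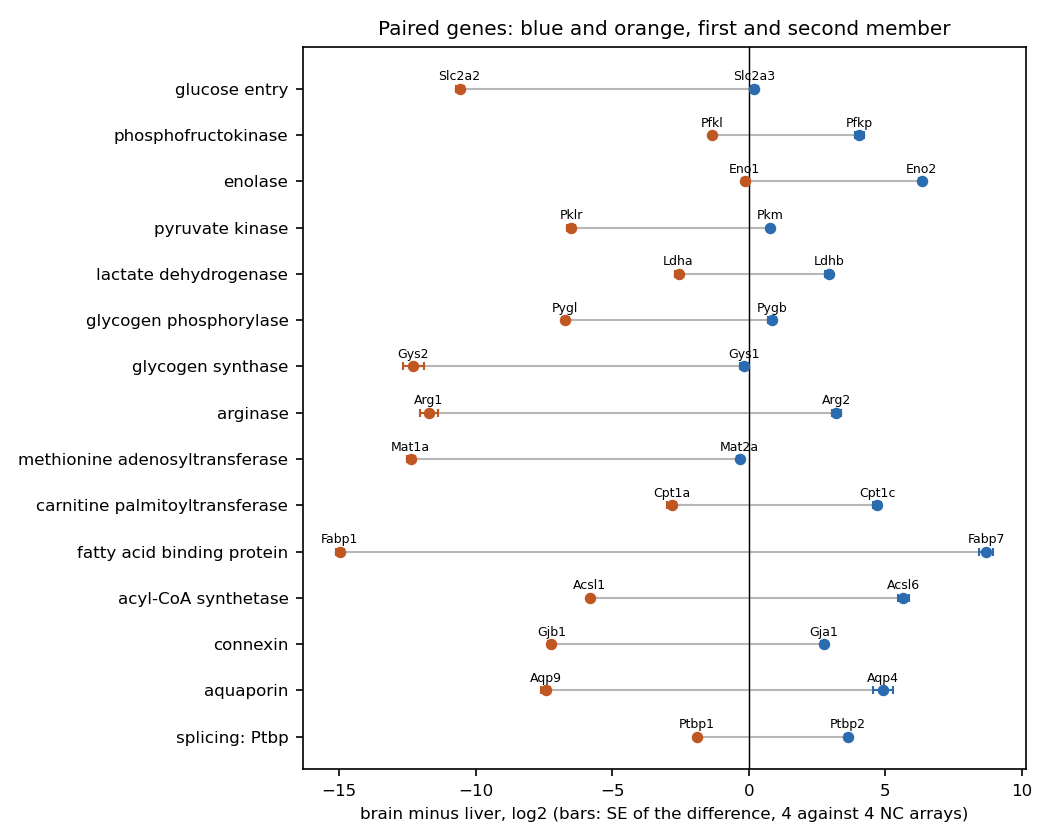
Brain minus liver difference (log2, horizontal axis, bars SE of the fit) of both genes of 15 pairs, first member blue and second member orange. The liver members Fabp1, Mat1a, Gys2 and Arg1 lie below -11, while Slc2a3, Gys1, Mat2a and Eno1 lie near 0, where the sign depends on the scaling; genes not well above background in the dimmer tissue are drawn at their fitted value.

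The pups of 1 tissue differed little at most genes, but single arrays stood apart at a few. The median SD over 4 arrays was 0.12 across 18333 genes in brain and 0.143 across 15696 in liver. An SD above 1 was found for 49 and 102 genes. Over the 14244 genes measured in both organs, liver had the larger SD at 8655. On brain array 2 the pituitary hormone genes were high. Pomc, the precursor of ACTH, read -1.28, 3.17, -1.35 and -1.18 on brain arrays 1 to 4, and Cga, the alpha subunit of pituitary hormones, read -3.73, 0.81, -3.96 and -5.20. Gh, growth hormone, which was chosen after its values were seen, read -6.68, 1.23, -7.56 and -7.28. It was well above background on array 2 and on no other NC array. Other pituitary genes, also chosen after their values were seen, were divided. Tshb was likewise well above background on array 2 alone, while Prl, Fshb and Pou1f1 were not so on any NC array. The summed level of the 5 measured genes of the pituitary, retina and olfactory list was 11 on brain array 2 and 0.667 to 0.692 on the other 3. The difference of Pomc between organs was 3.50 ± 0.94 (limma, adjusted p = 0.00663), and 2.39 without brain array 2. Cga was not called (-1.05 ± 1.13), but without that array it was called higher in liver (-2.33).

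Liver array 4 was set apart by muscle genes and by a few others. Myh8, the perinatal myosin, read -3.47, -4.01, -2.45 and 1.19 on liver arrays 1 to 4. Acta1, skeletal actin, read -3.30, -3.38, -2.10 and 0.21, and Tnnc2, a troponin, read -1.83, -1.68, -0.66 and 1.80. Array 4 was highest at each. Tnnc2 differed by -3.38 ± 0.80 between organs, and by -2.58 without liver array 4. Over the list, the summed level of 13 measured muscle genes was 16.4 there, against 4.34, 4.56 and 5.48 on the other 3; Myog and Myod1, factors of muscle precursors, were well above background on no NC array. Myl1 read -3.54, -3.66, -1.87 and 0.78, with -2.54 ± 0.95 between organs, a call lost when liver array 3 or brain array 1, 2 or 4 was left out. Myh8 and Acta1 were not called between organs, and without liver array 4 Myh8 was called higher in brain by 1.89 (limma, adjusted p = 0.000939). The same array was high for Cdkn1c, at 4.33, 4.29, 4.36 and 6.11, and for Phlda2, at 0.93, 0.74, 0.86 and 2.55. Over all genes, array 4 lay apart from the other 3 livers at 3.17% of 15696 genes, against 0.58% to 1.58% for the others, by Dixon's criterion at the 95% level (the gap to the nearest array over the range of the 4). Among brains array 1 did so most, at 2.47% of 18333. Any of the 4 arrays lay apart at 6.52% of the liver genes and 5.63% of the brain genes, where chance gives about 1 in 20. Leaving out liver array 4 gave 17624 called genes.

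Other genes varied without such a group. Sult3a1, a sulfotransferase, read 2.20, -2.08, 2.12 and -1.39 in liver, high on arrays 1 and 3 and low on arrays 2 and 4, and Sult2a2 read 2.13, 1.73, 0.81 and -1.70. Prdm16, a zinc-finger factor of neural stem cells, read 0.23, 0.11, -3.60 and 0.06 in brain, low on array 3. Its difference between organs was not called (3.17 ± 1.36) and was called with the pup number as a block (3.17, adjusted p = 0.0134 by limma). Rrp7a, a ribosome assembly factor, read -2.13, -2.14, -2.09 and 1.5 in brain and 0.55, -2.30, -2.53 and -2.88 in liver.

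**Figure D4:**
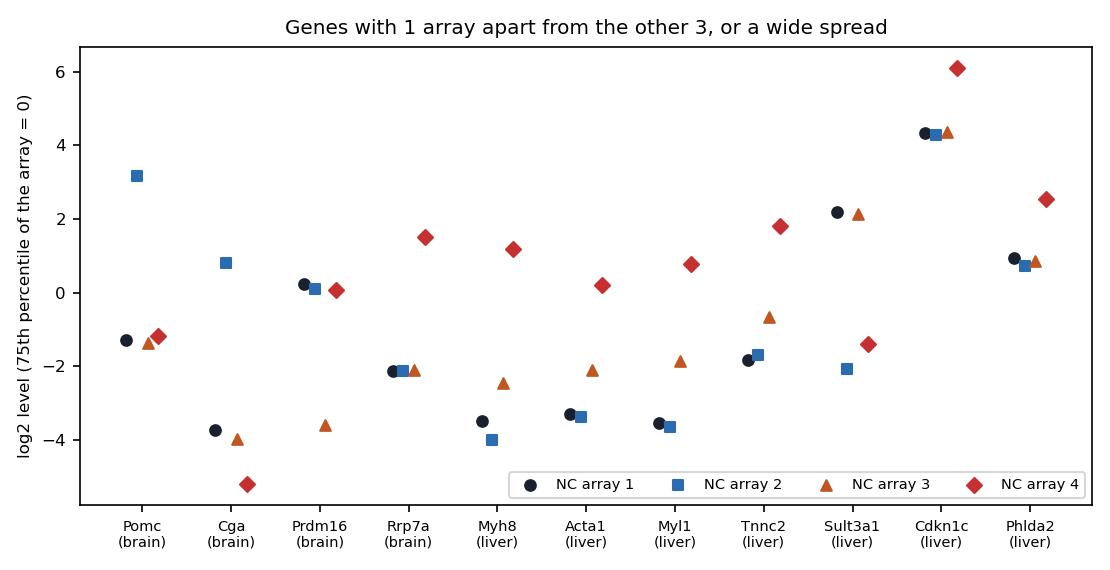
Log2 level (vertical axis, 75th percentile of the array at 0) of 11 genes on each of the 4 NC arrays of the tissue named under the gene; colour and shape mark the array number. Brain array 2 is high at Pomc and Cga, and liver array 4 is highest at Myh8, Acta1, Myl1, Tnnc2, Cdkn1c and Phlda2.

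The tissue differences of the controls recurred in both groups of clones, which share no sample with them. The G20 brains and livers were scanned in the sessions of the NC brains and NC livers, so tissue and session coincide there as well. Only in CC were both tissues scanned in the same session, though on different slides. Of 3986 genes at least 4-fold higher in NC brain, 3949 had the same sign in CC and 3986 in G20, and 3108 (78%) and 3724 (93.4%) were again at least 4-fold. Of the 4131 genes in the liver direction that this fit held, 4108 and 4124 kept the sign and 2910 (70.4%) and 3864 (93.6%) the size. Across 19782 genes the differences correlated at 0.961 with CC and 0.989 with G20 (Pearson, over genes, which are not independent). The list medians moved along the same line: pan-neuronal genes had 8.55 in NC, 7.76 in CC and 8.54 in G20, and plasma transport genes -10.22, -9.20 and -10.69 over the 21 members in that fit.

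The difference between organs was smaller in CC than in NC at 6447 of 8118 genes with a 4-fold difference, and smaller in G20 at 4277 of them. These genes were chosen for a large difference in NC, so part of such a fall follows from the choice. A test of the difference of differences called 10733 of 20408 genes between NC and CC (52.6%), and 809 between NC and G20 (3.96%). NC and G20 share their scan sessions for each tissue, while CC was scanned in a session of its own, so for the first test group and session are inseparable and cannot be told apart. The ribosomal median was -1.97 in NC, -0.92 in CC and -1.97 in G20, with 33 of 37 genes called between NC and CC and 0 of 37 between NC and G20. For oxidative phosphorylation the medians were -1.88, -0.90 and -1.82 over 34 genes.

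Single genes departed further. Hoxb5 differed by -4.25 ± 0.20 in NC and 2.10 ± 1.35 in CC (limma interaction, adjusted p = 0.00842), and Hoxb7 by -3.82 ± 0.23 and 1.17 ± 0.91. These genes read higher in liver in NC. Syt10, a synaptotagmin, differed by -6.33 ± 0.21 in NC and -0.84 ± 0.33 in CC, Cdk5r2, an activator of the neuronal kinase Cdk5, by -4.08 ± 0.17 and 0.55 ± 0.22, and Mink1, a kinase, by -6.83 ± 0.20 and -1.52 ± 0.27. In G20 the values of Syt10, Cdk5r2 and Mink1 were -5.95 ± 0.33, -3.42 ± 0.22 and -6.24 ± 0.27, and none was called different from NC (adjusted p = 0.709, 0.246 and 0.407 by limma). Larger differences toward brain in NC than in CC were found for Tbr1, with 7.29 ± 0.10 and 4.54 ± 0.16, Asxl3, with 3.79 ± 0.11 and 0.98 ± 0.14, and Dnajb8, with 1.61 ± 0.47 and -1.55 ± 0.43. Myh1 had 2.59 ± 0.19 and -1.23 ± 1.09, a call lost with the pup number as a block (adjusted p = 0.0541 by limma), with quantile normalization, normexp or no filter, and when any NC array other than liver array 4 was left out. Values of genes at background in a tissue are fitted values and not bounds.

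Between NC and G20 the genes with the largest departures were mostly liver products. Serpina6, which carries glucocorticoids in plasma, differed by -7.64 ± 0.68 in NC (-6.86 without liver array 4) and -12.41 ± 0.57 in G20, Serpina7, which carries thyroid hormone, by -5.81 ± 0.45 and -8.81 ± 0.34, and Hamp by -8.72 ± 0.32 and -12.04 ± 0.35. In these the NC livers were nearer to brain. The reverse held for Mug1 and Mug2, plasma protease inhibitors that are close in sequence, with -10.39 ± 0.49 and -8.94 ± 0.49 in NC against -5.07 ± 0.42 and -3.55 ± 0.41 in G20. It also held for Mbl2, with -13.47 ± 0.33 and -8.17 ± 0.59, Cyp4a12a, a male-biased P450 of adult liver, with -9.29 ± 0.18 and -4.38 ± 0.35, and Sult3a1, with -7.68 ± 0.96 and -1.22 ± 0.67. A2ml1 and Mcpt4 were higher in NC than in G20 on this measure, with -1.79 ± 0.24 against -4.95 ± 0.25 and 1.36 ± 0.44 against -1.42 ± 0.34. The lipid synthesis list had a median of -2.56 in NC, -1.27 in CC and -0.39 in G20, with 7 of its 19 genes called between NC and G20 against the background of 3.96%.

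**Figure D5:**
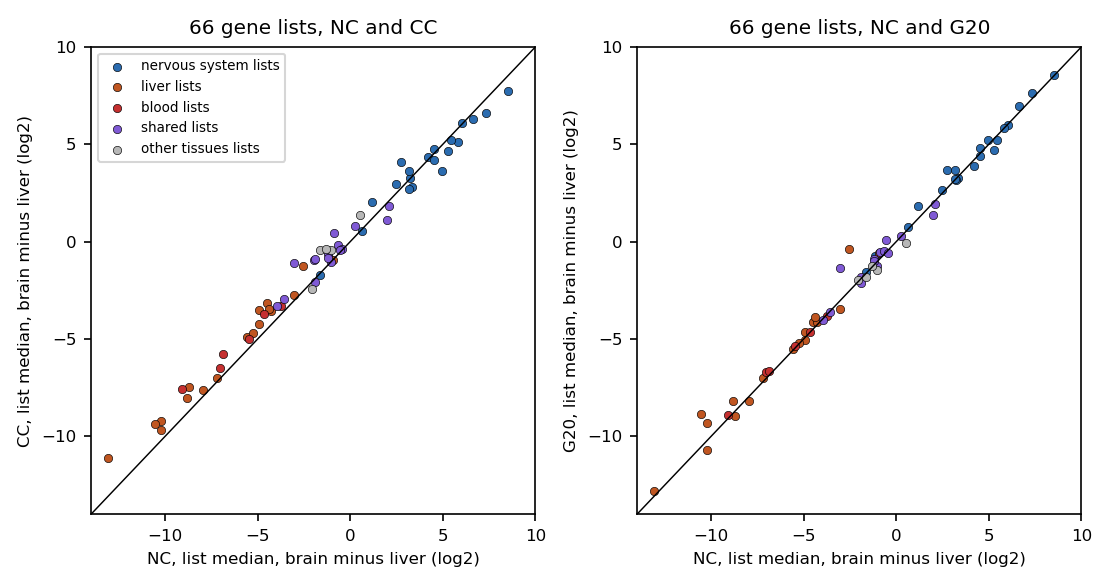
Median brain minus liver difference (log2) of 66 gene lists in NC (horizontal axis) against CC (left) and G20 (right), with the line of equal medians. The lists fall along the line; in CC those with large differences lie nearer to 0, as for pan-neuronal genes (8.55 and 7.76), and in G20 lipid synthesis lies off it (-2.56 and -0.39).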

How the data were processed

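Cy3-labelled RNA of 24 arrays was scanned by the authors. Agilent Feature Extraction 9.5.3.1 is named in the submitters' processing notes. The deposited scanner files hold signal intensity per spot, and gProcessedSignal is background-subtracted per the file headers. The 43379 non-control spots were averaged over 41174 probes, and log2 of the deposited intensity minus the array's 75th percentile was taken. Accessions named 23374 probes through RefSeq, and 17800 kept the name in the file. A gene was its brightest probe over the 8 arrays among those rated well above background on all 4 arrays of either tissue. The authors' matrix intensity values, rescaled per array by an unstated step, served as an alternative.

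Groups came from the sample titles. Brain and liver were compared with limma 3.58.1 in R 4.3.3 (adjusted p below 0.05), and tissue differences between groups with an interaction contrast over 24 arrays. The code was tested on simulated data. Brain and liver of 1 number share a pup label, so numbers pair the samples; their deviations from the group means correlated at 0.06, 0.169, 0.286 and 0.041. The main fit had no block. Alternatives were other scalings (median, quantile, common probes, spike-ins), normexp background correction, filters, the mean of probes, matrix values, the pup block, a fit of all arrays and leaving out each array. The members and lists were chosen with earlier results of these data known. Named genes were taken by rule: the first members of each list, those with the largest differences either way, the top genes by difference or bound, both genes of each pair, the most variable genes and those with the largest interactions. The text names a selection of them, and some genes are not reported here. Aligning probes to exons needs a genome and was not done, so positions are those in the scanner files (mm8).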

Additional observations from a re-analysis of the deposited data

Results flagged for a closer look

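In 4 arrays of a tissue, 1 array was taken to stand apart when its gap to the nearest of the others, divided by the range of the 4, was above Dixon's 95% critical value for 4 samples. Of 444 sets of 4 arrays tested for the named genes, 33 met this, and chance gives about 1 in 20. Each is given with its log2 level, the range of the other 3 and the gap ratio; their causes were not tested.

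Liver array 4 accounted for 15 of the 33. It had Pon1 at 5.94 against 6.5 to 6.59 with a gap ratio of 0.864 and Tmem119 at -1.02 against -1.45 to -1.39 with a gap ratio of 0.856. There were also Agxt at 6.15 against 6.80 to 6.83 with a gap ratio of 0.954 and Cyp4a14 at 4.76 against 6.43 to 6.55 with a gap ratio of 0.931. It had Camp at 6.01 against 5.81 to 5.83 with a gap ratio of 0.899 and Clec4f at 3.45 against 3.30 to 3.31 with a gap ratio of 0.917. There were also Cd5l at 4.06 against 3.31 to 3.38 with a gap ratio of 0.907 and Sec61b at 6.99 against 6.21 to 6.31 with a gap ratio of 0.868. It had Ndn at -1.60 against -1.98 to -1.91 with a gap ratio of 0.83 and Cdkn1c at 6.11 against 4.28 to 4.36 with a gap ratio of 0.96. There were also Phlda2 at 2.55 against 0.74 to 0.93 with a gap ratio of 0.893 and Pygl at 6.86 against 6.28 to 6.36 with a gap ratio of 0.858. It had Gjb1 at 1.33 against 0.97 to 1.02 with a gap ratio of 0.88 and Mug2 at -0.23 against 1.93 to 2.13 with a gap ratio of 0.917. There were also Mug1 at 1.49 against 3.64 to 3.8 with a gap ratio of 0.931.

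Brain array 1 accounted for 5. It had Mbp at 1.43 against 1.75 to 1.81 with a gap ratio of 0.847 and Rest at -0.96 against -1.28 to -1.27 with a gap ratio of 0.977. There were also Aldoa at 5.75 against 5.95 to 5.98 with a gap ratio of 0.88 and Pfkl at 1.52 against 1.69 to 1.73 with a gap ratio of 0.831. It had Xist at 3.23 against 3.35 to 3.37 with a gap ratio of 0.914. Brain array 3 was apart at 4 genes. It had Fbp1 at -4.27 against -4.17 to -4.16 with a gap ratio of 0.928 and Hc at -3.60 against -4.14 to -4.07 with a gap ratio of 0.883. There were also Stab2 at -2.93 against -5.13 to -5.06 with a gap ratio of 0.968 and Prdm16 at -3.60 against 0.06 to 0.23 with a gap ratio of 0.957. Brain array 2 was apart at 3 genes. It had Serpina1d at -3.55 against -5.20 to -5.09 with a gap ratio of 0.932 and Bcl11b at 2.82 against 3.46 to 3.49 with a gap ratio of 0.954. There were also Pomc at 3.17 against -1.36 to -1.18 with a gap ratio of 0.962. On brain array 4 there were 2 such genes. It had Eno2 at 1.97 against 2.18 to 2.21 with a gap ratio of 0.85 and Rrp7a at 1.5 against -2.14 to -2.09 with a gap ratio of 0.988. On liver array 3 there were also 2. It had Klf1 at 5.30 against 4.57 to 4.67 with a gap ratio of 0.867 and Mink1 at 1.02 against 1.41 to 1.47 with a gap ratio of 0.853. Liver array 2 had 1. It had Pkm at 1.14 against 0.86 to 0.89 with a gap ratio of 0.88. Liver array 1 had 1. It had Rrp7a at 0.55 against -2.88 to -2.30 with a gap ratio of 0.831.

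The brain minus liver difference itself differed between NC and another group at the following genes, given as the NC difference minus that of the other group on the log2 scale, with all 4 arrays per tissue and group in the fit. Between NC and CC, whose scan sessions also differ, 144 of 287 named genes were called, where 52.6% of all 20408 genes were. Those chosen by size are given. In the same limma fit were Myh1 by 3.82 (adjusted p = 0.0426; a call lost with the pup block, quantile normalization, normexp or no filter, and without any 1 NC array other than liver array 4), Dnajb8 by 3.17 (adjusted p = 0.000225) and Hamp by 2.81 (adjusted p = 9.04e-05). With limma, NC also differed at Asxl3 by 2.80 (adjusted p = 2.02e-09), Tbr1 by 2.75 (adjusted p = 1.17e-08) and Hoxb5 by -6.35 (adjusted p = 0.00842). By the limma interaction test, NC differed at Syt10 by -5.49 (adjusted p = 1.49e-08), Mink1 by -5.31 (adjusted p = 1.53e-09) and Hoxb7 by -4.99 (adjusted p = 0.00276). In the same limma fit were Cdk5r2 by -4.63 (adjusted p = 8.91e-10).

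Between NC and G20, 26 of 287 named genes were called, where 3.96% of all 20408 genes were. Some of the 287 were named because they had the largest such differences, so the 2 shares are not alike in kind. With limma, NC also differed at Serpina1d by -1.98 (adjusted p = 0.0216), Gad2 by -0.89 (adjusted p = 0.03) and Mbl2 by -5.30 (adjusted p = 0.000811). By the limma interaction test, NC differed at Hamp by 3.32 (adjusted p = 0.000547), Fasn by -1.43 (adjusted p = 0.00307) and Scd1 by -3.02 (adjusted p = 0.0261). In the same limma fit were Me1 by -1.74 (adjusted p = 0.00307), Cyp2c29 by -1.06 (adjusted p = 0.00419) and Ugt1a1 by -2.08 (adjusted p = 0.00194). With limma, NC also differed at Kel by -2.04 (adjusted p = 0.0175), Add2 by -0.93 (adjusted p = 0.0153) and Cygb by -0.84 (adjusted p = 0.0146). By the limma interaction test, NC differed at Mcpt4 by 2.79 (adjusted p = 0.00226), Lrat by -1.44 (adjusted p = 0.0256) and Snrpn by -1.53 (adjusted p = 0.0415). In the same limma fit were Aldoa by -0.77 (adjusted p = 0.00922) and Mat2a by -0.43 (adjusted p = 0.0431). With limma, NC also differed at Igf1 by -1.26 (adjusted p = 0.00977), Ghr by -0.60 (adjusted p = 0.0222) and Sult3a1 by -6.46 (adjusted p = 0.000459). By the limma interaction test, NC differed at Serpina6 by 4.77 (adjusted p = 0.00179), A2ml1 by 3.16 (adjusted p = 2.73e-05) and Serpina7 by 3.0 (adjusted p = 0.000962). In the same limma fit were Mug2 by -5.39 (adjusted p = 2.73e-05), Mug1 by -5.32 (adjusted p = 2.73e-05) and Cyp4a12a by -4.91 (adjusted p = 1.2e-05).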

How the results depend on the processing

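Of the 278 called genes named in the text, 259 kept direction and call under every alternative that was tried other than spike-in scaling, which was chosen after seeing the data. A call was lost with its sign kept at 15 genes, in 26 of 4961 values. These were Vim, Mbp, Cx3cr1, Srebf2, Mcpt4, Rps3, Atp5b, Psmc5, Hspa5, Hk1, Aldoc, Mat2a, Myl1, Xist and Dnajb8. Values with a changed sign, some of which also lost the call, are not in this count and are given further below. Leaving out each NC array in turn gave 17327 to 17624 called genes, 8607 to 8777 higher in brain and 8719 to 8847 higher in liver. At 4-fold or more these were 3955 to 4011 and 4105 to 4162. The tissue difference was called different between NC and CC at 10114 to 10537 genes, between NC and G20 at 580 to 945, and the detection difference was 10.2 to 11 points. With the replicate block, the pup number, 17648 genes were called, 17474 of them shared with the fit without it. It gave 10680 genes between NC and CC and 723 between NC and G20. Between brain and liver it added a call for Fasn and Prdm16 and changed no other call of a named gene; between NC and CC it ended the call of Myh1 (3.82, adjusted p = 0.0541 by limma).

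Normexp gave 2041 and 1998 genes at 4-fold or more toward brain and liver, and 1285 between NC and G20. Spike-in scaling gave 15060 and 2327 called genes toward brain and liver, and 11634 and 1323 at 4-fold or more. The authors' matrix values gave 2345 genes at 4-fold or more toward liver, among 16021 tested. Without a filter 16262 genes of 28599 were higher in liver. With probes well above background on all 8 arrays, 5219 genes of 14244 were higher in brain, 1555 by 4-fold or more. The share of calls higher in brain was 41.7% with median scaling, 51.8% with quantile normalization, 52.8% with normexp, 55.6% with the 75th percentile of common probes and 55.9% with the matrix values.

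Direction changed at 16 named genes. With the mean of all probes Syn1 became 1.34, Mbp 0.89 and Xist 0.14. With median scaling Sqle became -0.27 and Aldoc -0.07. Quantile normalization gave Vim 0.43, Fasn 1.69, Rpl3 0.79, Cox4i1 0.50, Hspa5 0.28, Hk1 0.28, Aldoa 1.06 and Mat2a 1.02. Normexp gave Vim 0.55, Mbp 0.02, Fasn 1.93, Rpl3 0.63, Atp5b 0.08, Cox4i1 0.49, Hk1 0.60, Aldoa 1.20 and Mat2a 1.13. The matrix values gave Vim 0.21, Mbp 0.10, Fasn 0.33, Eno1 0.40, Gys1 0.38 and Mat2a 0.26. The cause was not tested. Signal over background limits genes dim in 1 tissue to a bound, and 4 arrays per tissue limit the precision.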
